A study of Mus musculus with 8 samples.

Results

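Tetrahydrobiopterin is the cofactor that tyrosine hydroxylase and tryptophan hydroxylase need to make dopamine and serotonin. It is built from GTP by GTP cyclohydrolase (Gch1), 6-pyruvoyltetrahydropterin synthase (Pts) and sepiapterin reductase (Spr), and the first of these steps sets the rate. The protein encoded by Gchfr binds GTP cyclohydrolase and lets the end product hold the enzyme back, while phenylalanine relieves that hold. After each hydroxylation the cofactor leaves the enzyme in a spent form, which Pcbd1 or its close relative Pcbd2 dehydrates and dihydropteridine reductase (Qdpr) reduces back to tetrahydrobiopterin. These 7 genes were taken by name, for their place in the pathway, from the 38924 genes of each count table. They were chosen with earlier results of these data known, and all 7 were found. All 7 also passed the expression filter of every comparison below.

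The values are reads of ribosome-bound RNA from embryonic mouse brainstem neurons, isolated with bacTRAP lines in which a transporter gene drives a tagged ribosomal protein. Midbrain neurons gave 6 libraries, named datL (n = 2), datM (n = 2), Lateral (n = 1) and Medial (n = 1), and hindbrain serotonin neurons gave 2. Lateral and Medial are titled midbrain dopamine neurons. The titles of datL and datM say midbrain neurons, and they were counted as dopamine libraries here. The series' design text names a dopamine transporter (Slc6a3) line and a serotonin transporter (Slc6a4) line, whereas the description of every library, serotonin included, gives the Slc6a3 line JD1640. No other allele or treatment is given for any group. The labels put dissection at embryonic day 15 and say that midbrain called day 18 was taken at day 15 and kept in vitro for 3 days. They do not say what L and M stand for, or whether libraries of a group came from separate animals, so each p-value below reflects the spread between libraries, which may be technical.

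Total counts ranged from 22417739 to 33216710 per library. The file headers place datL and datM in an October run folder, and the other 4 libraries in lane 8 of another run, where the names of Lateral and Medial include E18. The serotonin libraries were compared with Lateral and Medial within lane 8 as well as with all 6 dopamine libraries. The October run holds dopamine libraries alone, so no such comparison can be made there. Within lane 8 the E18 mark is on Lateral and Medial and not on the serotonin libraries. The mark and neuron type therefore go together in that comparison and cannot be told apart. In the pair of datL libraries, 36.3% of genes with at least 100 counts in either library were over 8-fold apart, and in the datM pair 35%, against 4.16% in the serotonin pair and 17% between Lateral and Medial. The October libraries detected 11708 to 12509 genes and the lane 8 libraries 13703 to 15656. The label check held: Slc6a3 and Th had higher CPM (counts scaled to the library's total) in all 6 dopamine libraries than in both serotonin libraries, and Slc6a4 and Tph2 lower.

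The annotated start regions of all 7 genes are in RefSeq's table (build GRCm38.p6, 250 bases before the start to 50 after it). Short stretches are shown for 5 genes with lower mean values in dopamine libraries, to let the letters that some of them share be read side by side. Pcbd1, whose mean was also lower, holds none of the letters marked below and is not shown. Pcbd2, whose mean was not lower, holds TGACG and CCGGAA and is not shown either. Capitals mark TGACG, the core of the cyclic AMP response element; CCAAT or its complement ATTGG, the CCAAT box; or CCGGAA, a core read by ETS factors, the family of the serotonin neuron factor Fev.
Gch1, chr14:47189476-47189504, minus strand: ccaTGACGcaagaggctccggCCAATgaa
Gchfr, chr2:119167729-119167757, plus strand: cgcgcgctcctgATTGGctcgtgcagtgt
Qdpr, chr5:45450278-45450306, minus strand: tttcgcaagcctATTGGtcgaagcaggag
Pts, chr9:50528661-50528689, minus strand: cctcggtcCCGGAAgCCGGAAccgctagc
Spr, chr6:85137900-85137929, minus strand: ctcaaggggaacCCGGAAgcgctgggaagg
On either strand, CCAAT was found in 3 of 7 start regions (Gch1, Gchfr and Qdpr), beside 37.4% of all 32851 start regions. TGACG was found in 2 of 7 (Gch1 and Pcbd2), beside 20.8%, and CCGGAA in 3 of 7 (Pts, Spr and Pcbd2), beside 14.9%. TATAAA, the TATA box, was found in 2 of 7 (Gch1 and Pcbd1), beside 13.6%. AAAGGTCA, the element read by the dopamine neuron factor Nr4a2, was found in 0 of 7, beside 1.51%. A match describes letters and not a site in use, and its absence says only that these letters are not in the window.

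Gchfr, the regulator (ENSMUSG00000046814.3, mm10 chromosome 2, 119167773 to 119172390, plus strand, 3 exon blocks), was the member with the widest gap between neuron types. Serotonin libraries held it at 1856 and 1692 CPM, from 54694 and 49324 counts. In the dopamine libraries it stood at 37.1 and 0 CPM in datL, 0.0367 and 0.0832 CPM in datM, 4.4 CPM in Lateral and 30.2 CPM in Medial. Every dopamine library therefore lay far below both serotonin libraries, and 3 of the 4 October libraries held at most 2 counts. Means were 12 ± 17 CPM (SD, n = 6) for dopamine and 1774 ± 116 CPM (SD, n = 2) for serotonin, which is 148-fold higher.

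The fit of all 13806 genes gave Gchfr a log2 fold change of -7.11 (SE 1.81), with a Benjamini-Hochberg adjusted p = 0.328 in edgeR's quasi-likelihood test, short of the 0.05 threshold. No gene passed in that fit (0% of those tested). At an unadjusted p under 0.05, edgeR placed 386 genes (2.8%) higher and 262 (1.9%) lower in dopamine libraries, or 298 and 325 with libraries scaled by their totals alone. Gchfr was the 1 member of 7 past that mark. Past the adjusted threshold limma-voom called 14 genes, Gchfr among them (adjusted p = 0.0351), and DESeq2 called 125, with no adjusted p given for Gchfr. Within lane 8 its log2 fold change was -6.81 (SE 0.99, adjusted p = 0.254 in edgeR), where 0.0224% of 13400 genes passed. Leaving out 1 of the 4 lane 8 libraries leaves a single library on 1 side, so only effect sizes are given. The log2 fold change was -8.67 without Medial and -6.01 without Lateral.

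Of the 5 genes whose profile over the 8 libraries came nearest to that of Gchfr, 4 were serotonin neuron markers. Likeness was the root mean square difference of mean-centred log2(CPM + 0.5), over 10386 candidates with a mean of at least 5 CPM. The order was Slc6a4 at 2.06, the transcription factor gene Fev at 2.27, Gata2 at 2.28, Tph2 at 2.28 and the crystallin gene Cryba2 at 2.29, with Gchfr's own SD at 4.92 on this log2 scale. These points share the split into neuron types, so closeness here is a description. Among the other members Qdpr came nearest, at rank 140 and a distance of 3.31, and Gch1 stood at rank 735 and 3.84.

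Serotonin neuron RNA was also counted in the lane 8 dopamine libraries. Tph2 stood at 16.8 CPM in Lateral and 41.5 CPM in Medial, which is 0.659% and 1.63% of its serotonin mean. Slc6a4 stood at 0.464% and 0.346% of its serotonin mean and Fev at 0.0663% and 0.229%, and Gchfr itself at 0.248% and 1.70%. Not every serotonin neuron marker was this low. Gata2 stood at 13.7 CPM in Lateral and 24.2 CPM in Medial, against 122 and 159 CPM in serotonin libraries. Slc22a3 stood at 2.77 and 28.9 CPM, against 184 and 205 CPM. In the October libraries Slc6a4 and Fev had 0 counts, and Tph2 had 1 count in datM replicate 1 and 0 in the others. Of the dopamine libraries, only Lateral and Medial share lane 8 with the serotonin libraries. The source of the serotonin neuron RNA counted in Lateral and Medial was not tested. In datL replicate 1 Gchfr stood at 2.09% of its serotonin mean, although Tph2, Slc6a4 and Fev had 0 counts. Gata3, a factor of serotonin and of midbrain GABA neurons, stood at 422 CPM in that library and at 11.8 to 210 CPM in the other dopamine libraries, and was singled out after its values were seen. The 4 noradrenaline neuron markers, of cells that also use tetrahydrobiopterin, summed to 10.1 and 36.0 CPM in the serotonin libraries and to 0 to 3.12 CPM in dopamine libraries, where Dbh, Phox2a and Slc6a2 were at 0. The part that any of these cells had in the level of Gchfr was not tested. In RNA from pooled cells, fewer cells that make a transcript and less of it per cell cannot be told apart.

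**Figure D1:**
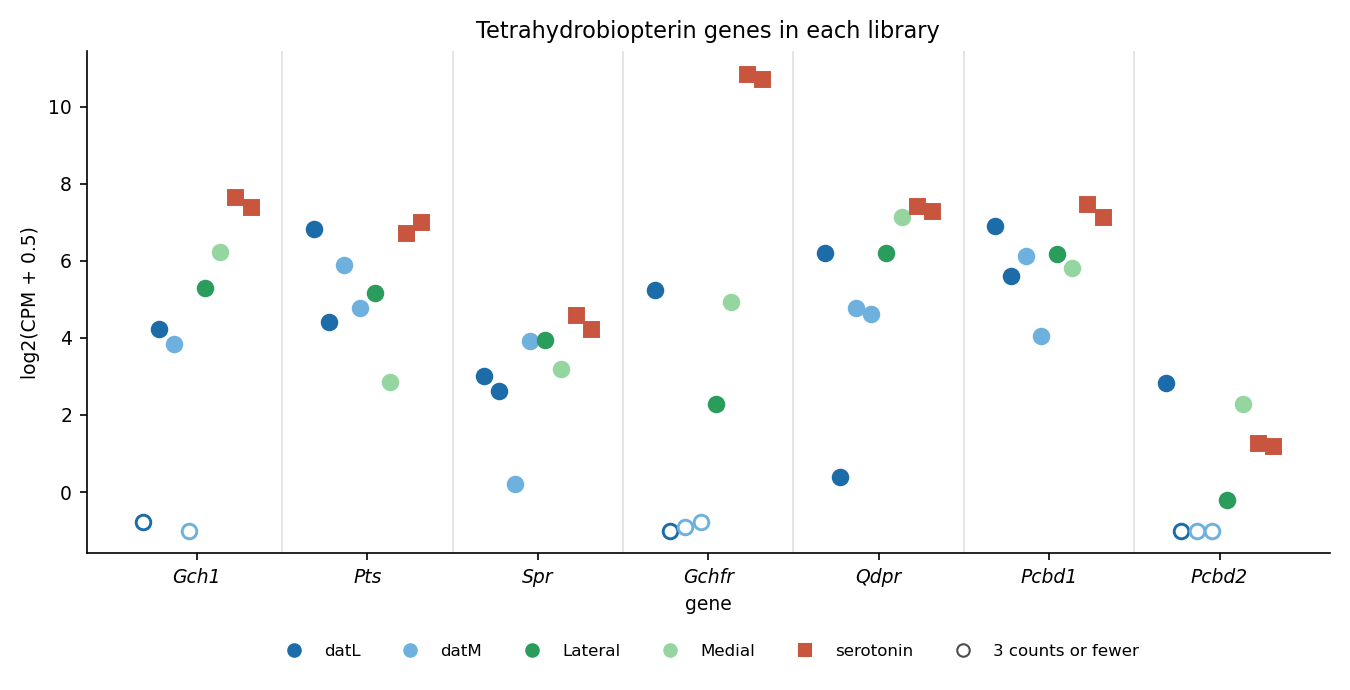
Values of the 7 genes in each of the 8 libraries, as log2(CPM + 0.5) on the vertical axis, with circles for dopamine and squares for serotonin libraries and open circles for 3 counts or fewer. The serotonin libraries sit above every dopamine library for Gch1, Spr, Gchfr, Qdpr and Pcbd1, and within the dopamine range for Pcbd2.

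Gch1, the enzyme that Gchfr regulates (ENSMUSG00000037580.9, chromosome 14, 47153895 to 47189413, minus strand), measured 202 and 168 CPM in serotonin neurons. In the dopamine libraries it stood at 0.0881 and 18.3 CPM in datL, 13.9 and 0 CPM in datM, 38.7 CPM in Lateral and 74.7 CPM in Medial. Both serotonin libraries lay above all 6 dopamine libraries, and 1 library each of datL and datM held 2 and 0 counts. Its mean was 24.3 ± 28.5 CPM (SD, n = 6) against 185 ± 23.6 CPM (SD, n = 2), with a log2 fold change of -2.90 (SE 1.56, adjusted p = 1 in edgeR). Within lane 8 the log2 fold change was -1.81 (SE 0.39, adjusted p = 0.273 in edgeR). Without Lateral, with Medial alone against serotonin, it was -1.44. The 5 genes with profiles nearest to Gch1 were Anapc10, Scarb1, Slc45a1, Otud5 and Ddrgk1, at distances of 0.98 to 1.03. Like Gch1, all 5 stood at 1.67 CPM or less in datL replicate 1 and 0.374 CPM or less in datM replicate 2.

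The ratio of Gchfr to Gch1 lay higher in both serotonin libraries than in Lateral and Medial, while the October dopamine libraries lay on both sides of the serotonin values. Gchfr had 9.21 counts for each Gch1 count in serotonin replicate 1 (95% exact interval 8.96 to 9.46) and 10.1 in replicate 2 (9.77 to 10.4). The order was turned around in Lateral, at 0.114 (0.0952 to 0.135), and in Medial, at 0.404 (0.369 to 0.442). Scaled for exon length, since Gchfr has 645 bases of exon and Gch1 2775, the ratios were 39.6 and 43.3 in serotonin libraries, 0.489 in Lateral and 1.74 in Medial. Per unit of length, then, Gchfr exceeded Gch1 in 3 of the 4 lane 8 libraries, Medial included.

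In the October run the ratio took both extremes. In datL replicate 1 it was 422 (116 to 3486), from 843 counts of Gchfr and 2 of Gch1, above both serotonin libraries. In datL replicate 2, with 0 counts of Gchfr and 480 of Gch1, Gch1 was at least 160-fold higher, taking 3 counts as the floor for Gchfr. Replicate 1 of datM had 1 count of Gchfr and 380 of Gch1, a ratio of 0.00263 (6.65e-05 to 0.0148), and replicate 2 had 2 and 0 counts, too few for a ratio. On the scale of log2((Gchfr + 0.5)/(Gch1 + 0.5)) the mean was -1.94 ± 6.74 (SD, n = 6) in dopamine and 3.27 ± 0.09 (SD, n = 2) in serotonin libraries. The values of datL replicate 2 and of both datM libraries on this scale depend on the added 0.5, that of datM replicate 2 almost wholly. The difference of -5.20 was within the spread of the dopamine libraries (exact permutation test, two-sided, p = 0.357, where 28 arrangements allow no p below 0.0714). Without datM replicate 2 the difference was -6.05 (exact permutation p = 0.381), and without datL replicate 1 it was -7.27 (exact permutation p = 0.0952, the smallest that 21 arrangements allow), which again rests on the constant for datM replicate 2. Within lane 8 it was -5.49 (exact permutation p = 0.333, the smallest for 2 against 2). All intervals and floors cover counting error only.

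**Figure D2:**
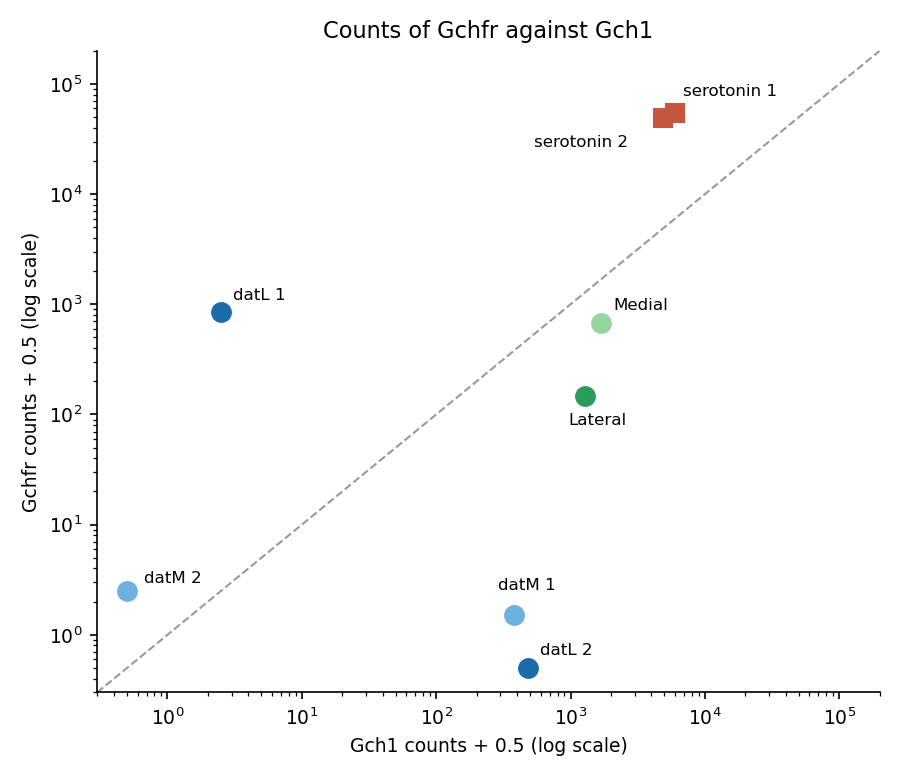
Counts of Gchfr (vertical) against Gch1 (horizontal) in each library, both plus 0.5 on log scales, with the dashed line at equal counts. The serotonin libraries lie above the line with 9.21 and 10.1 counts of Gchfr per Gch1 count, Lateral and Medial lie below it, and the 4 October libraries are spread on both sides.

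Pts, the enzyme of the second step (ENSMUSG00000032067.5, chromosome 9, 50521618 to 50528641, minus strand), had ranges that overlapped. It stood at 105 and 127 CPM in serotonin libraries, 113 and 20.6 CPM in datL, 58.5 and 27.0 CPM in datM, 35.6 CPM in Lateral and 6.78 CPM in Medial. Replicate 1 of datL thus reached the serotonin level, and Medial was the lowest of the 8. The log2 fold change was -1.23 (SE 0.87, adjusted p = 1 in edgeR) over all libraries and -2.50 (SE 0.81, adjusted p = 0.29 in edgeR) within lane 8. Without Lateral, with Medial alone against serotonin, the latter was -4.23.

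Spr, the reductase of the last step (ENSMUSG00000033735.7, chromosome 6, 85133678 to 85137766, minus strand), was measured at 23.8 and 18.3 CPM in the serotonin libraries, and per exon length it was the lowest of the 3 synthesis genes there. It stood at 7.53 and 5.61 CPM in datL, 0.661 and 14.6 CPM in datM, 15 CPM in Lateral and 8.65 CPM in Medial, all below both serotonin libraries. The nearest gap was small, between 15 CPM in Lateral (95% Poisson interval 13.7 to 16.3) and 18.3 CPM in serotonin replicate 2 (16.8 to 19.9). The log2 fold change was -1.16 (SE 1.47, adjusted p = 1 in edgeR), and -0.90 (SE 0.80, adjusted p = 0.707 in edgeR) within lane 8. A pseudogene, Spr-ps1, had 0 to 4 counts per library.

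Among the recycling genes, Qdpr and Pcbd1 followed the same order and Pcbd2 did not. Qdpr (ENSMUSG00000015806.6, chromosome 5, 45434032 to 45450235, minus strand), which reduces the spent cofactor, stood at 171 and 155 CPM in serotonin libraries. It stood at 72.5 and 0.801 CPM in datL, 26.7 and 24.0 CPM in datM, 72.6 CPM in Lateral and 140 CPM in Medial. Medial came close to the serotonin level, and datL replicate 2, with 21 counts, lay far under the rest. The log2 fold change was -1.47 (SE 1.03, adjusted p = 1 in edgeR), and -0.72 (SE 0.37, adjusted p = 0.474 in edgeR) within lane 8.

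Pcbd1, the dehydratase of the recycling arm (ENSMUSG00000020098.6, chromosome 10, 61089343 to 61094328, plus strand), had the smallest SD relative to its mean across dopamine libraries. It stood at 120 and 48.3 CPM in datL, 69.3 and 16.0 CPM in datM, 71.9 CPM in Lateral and 55.4 CPM in Medial, against 176 and 140 CPM in serotonin libraries. The groups did not overlap. The mean was 63.4 ± 34.1 CPM (SD, n = 6) against 158 ± 25 CPM (SD, n = 2), with a log2 fold change of -1.17 (SE 0.64, adjusted p = 1 in edgeR), and -1.39 (SE 0.34, adjusted p = 0.281 in edgeR) within lane 8. Without Lateral, with Medial alone against serotonin, the latter was -1.65.

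Pcbd2, its relative (ENSMUSG00000021496.6, chromosome 13, 55727368 to 55776830, plus strand), was low everywhere and had no common direction. It stood at 1.93 and 1.78 CPM in serotonin libraries, 6.65 and 0 CPM in datL, 0 CPM in both datM libraries, 0.361 CPM in Lateral and 4.33 CPM in Medial. Replicate 1 of datL and Medial lay above the serotonin libraries and the other 4 dopamine libraries below. Its log2 fold change of 0.15 (SE 2.83, adjusted p = 1 in edgeR) turned to -1.10 without datL replicate 1 and to -0.17 without Medial. A stretch of 27 exon bases is shared with the antisense gene 4930451E10Rik, and the counting ignored strand.

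Of the 7 genes, 6 had negative log2 fold changes between dopamine and serotonin libraries, where 41.1% of all genes did. Their median was -1.23 and that of all genes 0.26 (0.14 where libraries were scaled by their totals alone). Gch1, Spr, Gchfr, Qdpr and Pcbd1, 5 of 7, lay lower in all 6 dopamine libraries than in both serotonin libraries, against 8.59% of all genes. Within lane 8, 6 of 7 had negative values, against 49.1% of all genes, and 6 of 7 did not overlap, Pts being the addition, against 24.6%, and Gch1, Pts, Gchfr and Pcbd1 had a lower value at an unadjusted p under 0.05, against 6.46%. No member passed the adjusted threshold in edgeR in either comparison. Radial glia and astrocyte markers were higher in sum: the 10 genes reached 1956 to 5004 CPM in dopamine and 925 to 1217 CPM in serotonin libraries. Fabp7 alone held 1082 to 2974 CPM of the dopamine sums. Of the 9 genes tested, 4 lay higher in all 6 dopamine libraries, against 3.06% of all genes, and the others overlapped. The part of these markers in the lower values of the members was not tested. Sums were also higher for red blood cell markers (102 to 640 CPM against 26.1 and 40.7 CPM), dividing cell markers (163 to 567 CPM against 77.5 and 85.1 CPM) and oligodendrocyte markers (38.7 to 429 CPM against 21.4 and 36.9 CPM). In that order, 4 of 5, 1 of 6 and 0 of 8 tested genes lay higher in all 6 dopamine libraries. The part of these 3 lists was not tested either. The 6 general neuron markers summed to overlapping levels, 11117 to 17173 CPM and 13261 to 13667 CPM, but did not share a direction. Tubb3 alone held 4735 to 11451 CPM of the dopamine sums. Of the 6, 1 (Map2) lay higher in all 6 dopamine libraries, against 3.06% of all genes. Another 2, Stmn2 and Syt1, lay lower, against 8.59%.

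**Figure D3:**
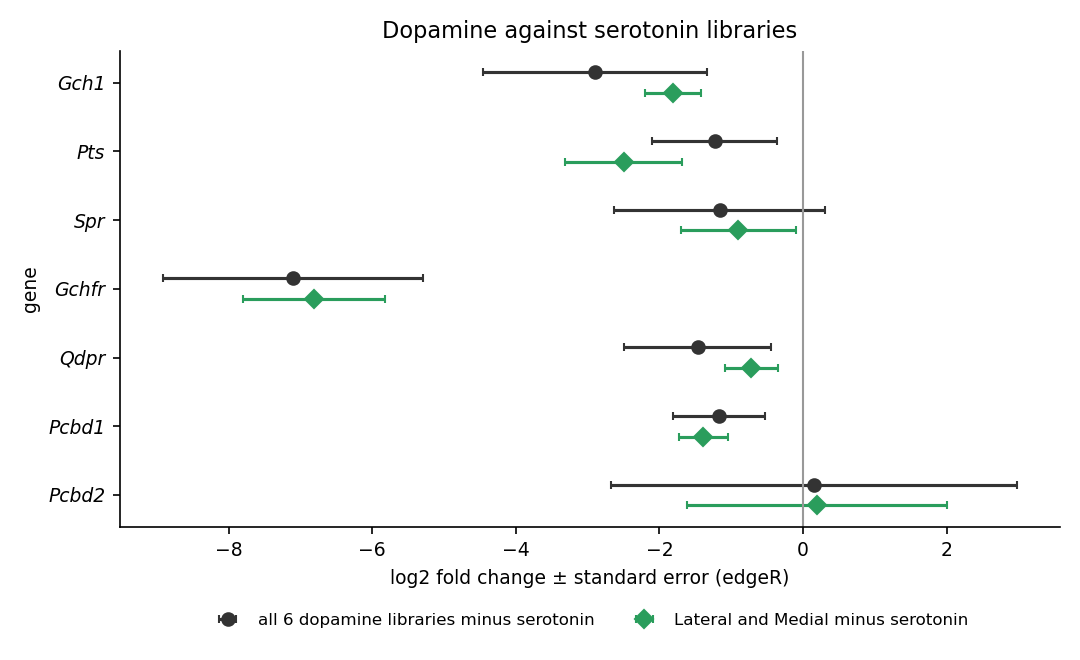
Log2 fold change of each gene with its standard error from edgeR, dopamine minus serotonin, for all 6 dopamine libraries (circles) and for Lateral and Medial alone (diamonds). Gchfr lies near -7 in both, the other genes but Pcbd2 lie between 0 and -3, and Pcbd2 lies at 0.15 and 0.20 with wide errors.

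The make-up of the set differed between neuron types when levels were scaled for exon length (RPKM, CPM per kilobase of exon). Gchfr made up 85.1% and 85.2% of the summed RPKM of the 7 genes in the serotonin libraries. It made up 15.5% and 0% in datL, 0.0352% and 0.183% in datM, 3.5% in Lateral and 19.7% in Medial. In both serotonin libraries the order was Gchfr, Pcbd1, Pts, Qdpr, Gch1, Spr and Pcbd2. Pcbd1 led in datL, in datM replicate 1 and in Lateral, at 39.9% to 65.5% of the sum, Pts led in datM replicate 2 at 37.0%, and Qdpr led in Medial at 30.9%. Gch1 stood below Pcbd1 in every library, at 60.6 to 72.6 RPKM against 174 to 217 RPKM in serotonin and 0 to 26.9 RPKM against 19.8 to 148 RPKM in dopamine libraries. Without Gchfr, the other 6 genes summed to 480 ± 33.2 RPKM (SD, n = 2) in serotonin and 169 ± 86.5 RPKM (SD, n = 6) in dopamine libraries, whose highest, datL replicate 1, reached 313 RPKM. Lateral and Medial, at 188 and 190 RPKM, had nearly the same sum with different parts. The annotated exon length need not be the length of the transcripts made in these cells.

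**Figure D4:**
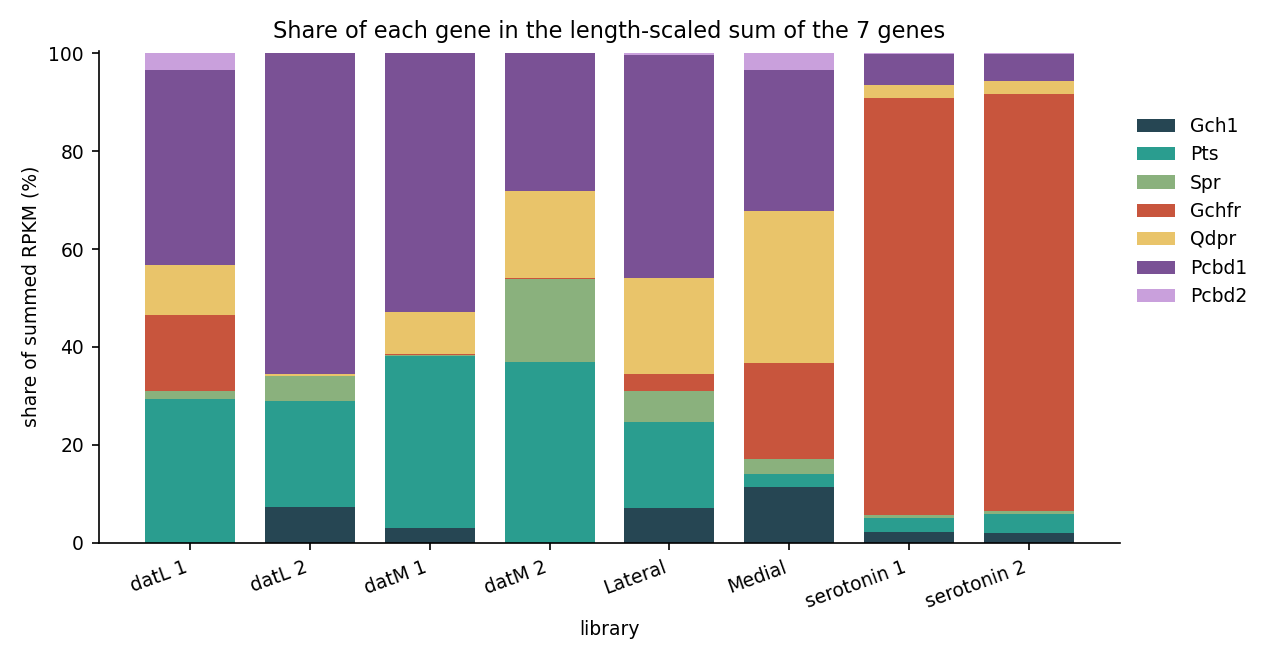
Share of each gene in the summed RPKM of the 7 genes, in percent, with 1 stacked bar per library. Gchfr fills 85.1% and 85.2% of the serotonin bars and at most 19.7% of a dopamine bar, where Pcbd1, Pts and Qdpr take most of the height.

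Between datL and datM the members did not form a pattern beyond the spread within the pairs. In edgeR no gene passed (0% of 15177 tested, with 1050 at an unadjusted p under 0.05), while DESeq2 called 1588 genes and limma-voom 243. No member lay wholly above or below in one group, against 11.3% of genes above and 13.2% below in datL. Within the datL pair 4 of the 7 members were over 8-fold apart, against 36.3% of genes with at least 100 counts: Gch1, Gchfr, Qdpr and Pcbd2. Gch1 was the higher in replicate 2 and the other 3 were higher in replicate 1. In the datM pair Gch1 and Spr were, out of 5 members with at least 100 counts in either library, against 35% of such genes. Within the serotonin pair no member differed by more than 1.30-fold.

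Among the members whose lower group had any counts, Gchfr had the largest fitted difference between datL and datM (log2 fold change 8.30, SE 2.67, adjusted p = 0.597 in edgeR and 0.000233 in DESeq2). It rested on datL replicate 1. Without that library the log2 fold change was -3.85 (adjusted p = 0.616 in edgeR), and without serotonin replicate 1 or 2, which enter only through the shared spread, it was 8.29 and passed (edgeR adjusted p = 8e-08 and 3.65e-08).

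Lateral and Medial are single libraries, and the difference between them was not tested here. Medial had 1.93-fold more Gch1 (95% interval 1.80 to 2.08), 1.93-fold more Qdpr (1.83 to 2.04), 6.86-fold more Gchfr (5.73 to 8.26) and 12-fold more Pcbd2 (6.55 to 24.0). Lateral had 5.24-fold more Pts (4.43 to 6.25), 1.73-fold more Spr (1.46 to 2.05) and 1.30-fold more Pcbd1 (1.21 to 1.39). The synthesis enzymes thus did not share a direction, nor did the recycling enzymes. These differences have no replicate check.

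The October dopamine libraries were also set against Lateral and Medial. Run, the E18 mark and title group go together there and cannot be told apart. Gch1 and Qdpr lay lower in all 4 October libraries than in both lane 8 dopamine libraries, against 12.7% of genes. For Qdpr the gap was nil within counting error, at 72.5 CPM in datL replicate 1 (95% Poisson interval 69.1 to 76.1) and 72.6 CPM in Lateral (69.7 to 75.5). Neither passed, with log2 fold changes of -2.58 (SE 1.99, adjusted p = 0.887 in edgeR) and -1.54 (SE 1.26, adjusted p = 0.906 in edgeR), and 0.00659% of genes did. Gchfr, whose ranges overlapped, had a log2 fold change of -3.23 (SE 1.69, adjusted p = 0.714 in edgeR), and passed at -3.22 without serotonin replicate 1 or 2, which enter only through the shared spread (edgeR adjusted p = 0.0447 and 0.048). The gap in Gch1 within dopamine libraries, 8.09 CPM on average in the October run and 56.7 CPM in lane 8, was 7.01-fold, beside a 7.61-fold gap between serotonin and all dopamine libraries.

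Among the enzymes that use the cofactor, 4 of 8 were abundant enough to test between dopamine and serotonin libraries. None passed the adjusted threshold in the edgeR fit of 2 neuron types. Th, at 254 to 905 CPM in dopamine libraries other than datL replicate 1 (93.2 CPM) and 10.6 and 20.9 CPM in serotonin libraries, had a log2 fold change of 5.16 (SE 0.96), and lay higher in all 6 dopamine libraries, as 3.06% of genes did. Tph2, at 0 to 41.5 CPM against 2910 and 2189 CPM, had one of -8.07 (SE 2.11). Both had an unadjusted p under 0.05. Tph2 passed in edgeR with 5 groups in the fit (-12.18, adjusted p = 0.015) and with datL and datM alone against serotonin (-17.23, adjusted p = 0.000144), and in limma-voom (-13.17, adjusted p = 0.0161). Th passed in DESeq2 (adjusted p = 1.52e-09). The nitric oxide synthase genes Nos1 and Nos3 had ranges that overlapped. Of the untested genes, Tph1 and Agmo had 0 counts in all dopamine libraries, and Nos2 had counts in datM replicate 2 alone.

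Dnajc12, a co-chaperone of the aromatic amino acid hydroxylases, stood at 563 and 517 CPM in serotonin libraries. It stood at 0 and 62.2 CPM in datL, 22.3 and 30.1 CPM in datM, 37.0 CPM in Lateral and 9.32 CPM in Medial, so the groups did not overlap. Its log2 fold change was -4.18 (SE 1.19, adjusted p = 0.415 in edgeR).

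Among 6 genes of monoamine synthesis, storage and breakdown, 5 had negative values, against 41.1% of all genes, and 4 lay lower in all dopamine libraries, against 8.59%: Ddc, Slc18a2, Maoa and Maob. Ddc, the decarboxylase that follows both hydroxylases, had a log2 fold change of -1.88 (SE 0.50, adjusted p = 0.339 in edgeR). Slc18a2, the vesicle transporter, averaged 61.5 CPM against 290 CPM. It stood at 0 and 10.2 CPM in datL and at 49.5 to 166 CPM in the other dopamine libraries. Maob, a monoamine oxidase, averaged 3.97 CPM against 21.4 CPM. Maoa is named for the count alone, after its values were seen. Aldh1a1, an aldehyde dehydrogenase of dopamine neurons, was the exception at 430 CPM against 0.46 CPM, and within lane 8 it was the 1 gene of this list that passed (log2 fold change 10.76, SE 0.48, adjusted p = 0.00764 in edgeR).

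Genes that supply GTP to the pathway showed no common direction. Of 6 GTP supply genes 3 had positive and 3 negative values, and 0 of 6 had an unadjusted p under 0.05 in edgeR over all libraries. Within lane 8 the split was again 3 and 3, and 3 of 6 had an unadjusted p under 0.05 in edgeR, against 1849 of all 13400 genes. Impdh1 was higher and Guk1 and Nme1 lower in dopamine libraries, with none past the adjusted threshold. Impdh1 is named for this count, after its values were seen. Over all libraries 2 of 6, Guk1 and Nme2, lay lower in all dopamine libraries, against 8.59% of all genes. Guk1, a guanylate kinase, averaged 82.9 CPM against 210 CPM. Nme2, named for this count alone, averaged 0.562 CPM against 1.33 CPM.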

How the data were processed

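The authors deposited raw read counts per gene, 1 table per library. The submitters' processing notes name STAR and the mm10 build. Per the file headers, featureCounts 1.4.3-p1 counted them against GENCODE vM2 with strand ignored and with no option set to count multi-mapping or overlapping reads. The labels' protocols give long-distance PCR of the cDNA, fragments near 200 bp, 10 further PCR cycles and single reads of 100 bp, and name no molecular identifiers, so PCR copies count as separate reads.

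Symbols were matched by Ensembl gene identifier. CPM used the library's total count and RPKM the exon length in the tables. All genes were fitted with edgeR 4.0.16 (quasi-likelihood, TMM, default expression filter, two-sided, Benjamini-Hochberg, threshold 0.05) in R 4.3.3: dopamine against serotonin with 6 and 2 libraries, the same within lane 8, and contrasts among dopamine groups in a fit of 5 groups. Standard errors came from the fold change and test statistic. Alternatives used DESeq2 1.42.0, limma 3.58.1 (voom), other scalings and filters, a replicate block and omitted libraries. The fit was also run on simulated counts whose spread was set by hand and not taken from these libraries. That run therefore does not show how the fit behaves at their spread. Intervals are 95% exact binomial or Poisson intervals. The named genes were the 7 members, the label checks, up to 4 genes of each other list by smallest p and the 5 nearest profiles. Members and lists were chosen with earlier results of these data known. Some genes of these lists are not reported here.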

Additional observations from a re-analysis of the deposited data

How the results depend on the processing

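Gch1, Pts, Spr, Gchfr, Qdpr and Pcbd1 kept a negative log2 fold change between dopamine and serotonin under all 17 alternatives and within lane 8 under all 10. Gchfr ran from -11.68 to -6.84, and passed over all libraries in limma-voom alone (-10.80). Within lane 8 it passed in DESeq2 (-6.76). It ran from -8.67 to -6.01 without 1 library, where the lone library of an arm is taken to vary like the others. Gch1, Pts and Pcbd1 passed within lane 8 in DESeq2. The number of genes called was 125 in DESeq2, 14 in limma-voom, 2 with 5 groups, 2 with datL and datM against serotonin and 0 to 1 without 1 library. Within lane 8 it was 3, 787 in DESeq2, 1 in limma-voom, 7 with no expression filter and 13 to 2453 without 1 library, the highest without Lateral. Between datL and datM it was 1588, 243 and 0 to 6 without 1 library, and between October and lane 8 dopamine libraries 1, 879 in DESeq2, 0 in limma-voom, 2 with no expression filter and 0 to 6 without 1 library. The cause was not tested.

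Signs turned for Pcbd2 between dopamine and serotonin (-3.03 in limma-voom, -2.15 with 5 groups, -1.10 to 0.41 without 1 library) and within lane 8 (-0.78 in limma-voom, -2.36 to 1.08 without 1 library). Between datL and datM they turned without 1 library for Gch1 (-6.20 to 11.05), Pts (-1 to 1.45), Spr (-1.05 to 3.35), Gchfr (-3.85 to 9.26) and Qdpr (-4.92 to 1.58), and in limma-voom for Spr (1.14) and Qdpr (-1.78). Between October and lane 8 libraries they turned for Pcbd1 (-0.08 by library totals, -0.15 in limma-voom, -0.61 to 0.49 without 1 library). The difference in the log2 ratio of Gchfr to Gch1 ran from -7.27 to -3.61.

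With the replicate block, 0 genes passed between dopamine and serotonin and 0 between datL and datM. In that block Pcbd2 stood at -5.58 in the former, and Spr at 0.39 and Qdpr at -0.31 in the latter. Same-numbered libraries did not deviate together (r of 0.099, 0.015 and -0.003 over genes for 3 pairs of groups), so the numbers were not taken as pairs. No paired analysis was possible within lane 8 because the groups share only replicate number 1 there, nor for the ratio, where the test compares single values.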
